A study of Mus musculus with 10 samples.

Results

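The genes described here encode the collagens and other structural proteins of the extracellular matrix, together with the enzymes that cross-link them and marker genes of the cells that make interstitial matrix. They were chosen by name and number 41. On the array 41 of 41 had a probe set, the group of short probes that reads 1 transcript, and where a gene had several, the brightest on average was read. Testing was limited to genes whose mean was at least 5.53 on the log2 scale, the median over 45037 probe sets without the controls. This kept 39 of the 41 genes and 11486 of all 18193 genes. Tnc, with a mean of 5.43, and Vcan, with 3.97, lay below it and were not tested.

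Each array held RNA from the kidney cortex of a single mouse of strain FVB/N, 20 weeks old. All 10 mice had undergone a 2/3 ablation of kidney tissue followed by removal of a kidney, and drug treatment began 6 weeks after the former and 4 weeks after the latter operation and ran for 6 weeks. Losartan, a blocker of the angiotensin II type 1 receptor, was given to 5 mice at 500 mg/l. Aliskiren, an inhibitor of renin, the enzyme that starts the formation of angiotensin II, was given to 5 mice at 50 mg/kg per day. Mice with no drug and mice with intact kidneys were not analysed here, so no value below is an effect of either drug alone.

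Interstitial matrix is built mainly by fibroblasts and by the mural cells of vessels, and its tensile strength comes from fibrillar collagens I, III and V that lysyl oxidases cross-link after secretion. Basement membranes are thin sheets under epithelia and endothelia, made of a collagen IV network joined to a laminin network by nidogens and perlecan. Scarring of a kidney that has lost mass is known for the build-up of interstitial collagen and fibronectin, and angiotensin II is a known stimulus of matrix synthesis.

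Mice on the same drug did not stand alike, and losartan mouse 3 and aliskiren mouse 1 are named throughout because they stood apart. They were singled out after their values were seen. Markers of the cortex were high everywhere, with the mean log2 value of 10 proximal tubule genes between 12.38 and 13.15 with losartan and between 12.82 and 12.99 with aliskiren. Losartan mouse 3 had the lowest proximal tubule mean, 12.38, and was the lowest of 10 mice for 6 of the 10 genes, beside 24.9% of all genes tested. It had the highest value for 8 of 8 fat markers, 9 of 10 macrophage markers and 9 of 10 markers of injured tubule, beside 29.2% of all genes tested. The same held for 8 of 11 fibroblast markers, 6 of 9 markers of vascular smooth muscle and 4 of 6 of urothelium. For endothelium the count was 5 of 10, for collecting duct 3 of 6 and for podocytes 2 of 8. These counts take every marker on the array, also those below the filter, while the 29.2% is over tested genes. Of the tested markers, losartan mouse 3 was highest for 4 of 4 fat, 8 of 9 macrophage and 7 of 8 injured tubule genes. For fibroblasts this was 6 of 8, for smooth muscle 3 of 4, for urothelium 2 of 2, for endothelium 4 of 9 and for podocytes 2 of 6. Adipoq, the adipocyte hormone adiponectin, read 12.96 in losartan mouse 3, 9.90 in aliskiren mouse 3 and 7.35 in aliskiren mouse 2, and between 3.17 and 3.96 in the other mice, the lowest value being that of aliskiren mouse 1. In whole tissue, a change in the number of cells of a type and a change in RNA per cell cannot be told apart.

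**Figure D1:**
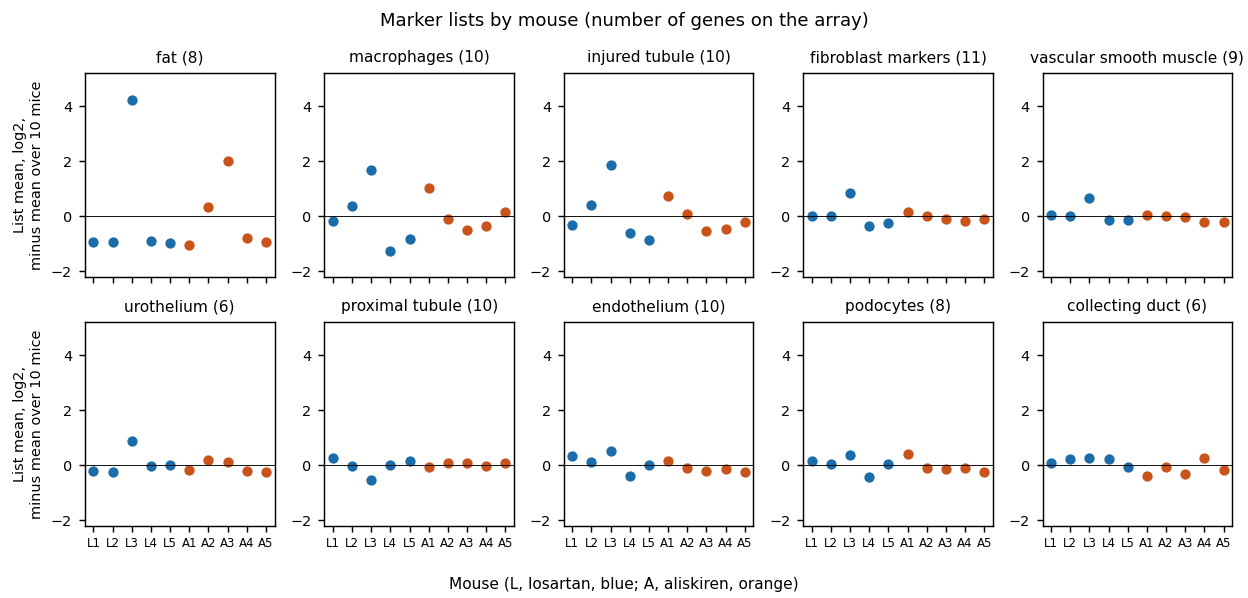
Mean log2 value of each marker list in each mouse, minus the list's mean over the 10 mice, with losartan mice L1 to L5 in blue and aliskiren mice A1 to A5 in orange, 1 point per mouse. Fat markers stand high in L3, A3 and A2, while macrophage and injured tubule markers are highest in L3 and next highest in A1.

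No structural matrix gene was called different between the drugs, and for every gene except Col4a5 the values of the groups overlapped. With limma, 0 of the 39 tested genes passed an adjusted p of 0.05, against 0 (0%) of all 11486 genes. At an unadjusted p under 0.05 there was 1 of 39, Col4a5, against 542 of all genes (4.72%). The point estimate was lower with aliskiren for 30 of 39, beside 53.8% of all genes, and the median difference was -0.14 on the log2 scale, beside -0.01 for all genes. The differences ran from -0.44 for Lum to 0.34 for Col4a3. Among single mice left out, losartan mouse 3 moved the count most, to 7 of 39 (50.6% of all genes). As this mouse was highest for 32 of 39 genes, leaving it out had to raise the difference for those genes. Without aliskiren mouse 4 the count was 24 of 39 (5948 of all 11486 genes). Without losartan mouse 3 and aliskiren mouse 1 it was 17 of 39 (54.4% of all genes). Without the 3 mice that carried fat marker signal it was 10 of 39 (51.6% of all genes), and with limma's array weights, which count less consistent arrays less, it was 20 of 39 (53.8% of all genes).

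What the design could bound differed by gene. For 10 of the 39 genes the 95% confidence interval excluded a change of 1.5-fold either way, beside 87.7% of all genes. These were Col5a1, Col4a4, Col4a5, Lama5, Lamb1, Lamb2, Lamc1, Nid2, Hspg2 and Eln, and 8 of the 10 belong to the basement membrane. The bound holds for the probe set read. A further Col5a1 set above the filter ran more widely, from 4.80 in losartan mouse 4 to 7.35 in losartan mouse 3, and no interval was fitted for it. Col5a1 and Eln, each with a mean of 6.03, also lay not far above the filter level. For the other genes a difference of 1.5-fold or more in at least one direction was not excluded. The interval for Lum, a small proteoglycan on collagen fibrils, ran from -1.74 to 0.86, and that for Col3a1 from -1.41 to 1.45.

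**Figure D2:**
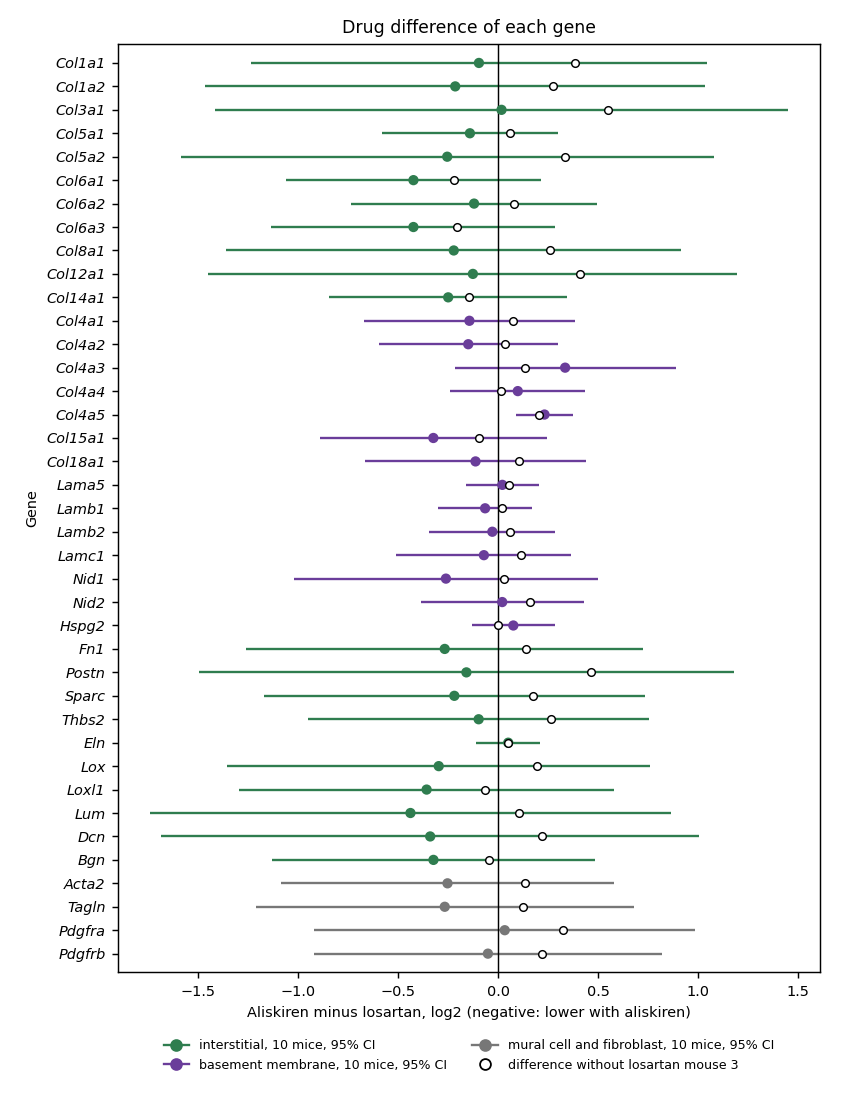
Difference of aliskiren minus losartan in log2 for each of the 39 tested genes, with filled points for the estimate over 10 mice, lines for its 95% confidence interval, and open points for the estimate without losartan mouse 3. Intervals cross 0 for every gene except Col4a5, and most open points lie to the right of the filled ones.

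Most fibrillar collagens ranged widely between mice, with the same pair of mice at the top. Col1a1 and Col1a2 encode the chains of collagen I, the main fibre of scar tissue. Col1a1 read 5.91, 6.95, 8.51, 5.63 and 5.93 in losartan mice 1 to 5, and 7.23, 6.21, 6.31, 5.86 and 6.84 in aliskiren mice 1 to 5. Col1a2 read 9.75, 10.13, 11.83, 8.49 and 9.14 with losartan and 10.75, 9.58, 9.43, 8.89 and 9.62 with aliskiren. Losartan mouse 3 was highest and aliskiren mouse 1 next for both genes, losartan mouse 4 was lowest, and the groups overlapped over most of their range. The drug difference was -0.10 (SE 0.51, adjusted p = 0.994) for Col1a1 and -0.21 (SE 0.56, adjusted p = 0.989) for Col1a2.

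Col3a1, the single chain of collagen III, which forms fine fibrils with collagen I, read 9.28, 10.29, 11.82, 8.05 and 8.996 with losartan. With aliskiren it read 10.86, 9.77, 9.50, 8.63 and 9.77. The ratio of highest to lowest mouse, 13.6-fold, was the widest among the 39 genes, yet the group means were 9.69 ± 1.43 (SD, n = 5) and 9.70 ± 0.80 (SD, n = 5). The difference of 0.02 (SE 0.65, adjusted p = 0.997) was the smallest of the fibrillar collagens.

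Collagen V starts and limits the fibrils of collagen I. Its chain Col5a2 read 6.66, 6.99, 9.42, 5.91 and 6.32 with losartan and 7.78, 6.90, 6.61, 5.93 and 6.79 with aliskiren, a ratio of 11.3-fold between losartan mice 3 and 4. Its partner chain Col5a1 moved in the same mice but less, from 5.74 in aliskiren mouse 4 to 6.91 in losartan mouse 3, or 2.25-fold. The differences between drugs were -0.25 (SE 0.60) for Col5a2 and -0.14 (SE 0.20) for Col5a1. All 5 fibrillar collagens were highest in losartan mouse 3, next highest in aliskiren mouse 1, and lowest in losartan mouse 4 or aliskiren mouse 4.

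The stretch before the annotated start is shown for Col3a1 and Col1a2, which spanned 13.6-fold and 10.1-fold between mice, and for Lamb2, a basement membrane gene that spanned 1.78-fold. Sequences are from RefSeq, build GRCm38.p6, plus strand, 5′ to 3′, and end at the base before the first annotated start of the gene. Capitals mark the motif GGGCGG, the motif CCAAT and the motif TATAA on either strand, where the overlapping matches of TATAA on both strands read TTATAA.
Col1a2, chr6:4505368-4505617: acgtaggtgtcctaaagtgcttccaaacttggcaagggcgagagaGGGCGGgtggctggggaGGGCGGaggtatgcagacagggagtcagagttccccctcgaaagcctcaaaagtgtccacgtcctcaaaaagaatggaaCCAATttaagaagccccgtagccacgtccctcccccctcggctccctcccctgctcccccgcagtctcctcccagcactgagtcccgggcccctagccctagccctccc
Col3a1, chr1:45311288-45311537: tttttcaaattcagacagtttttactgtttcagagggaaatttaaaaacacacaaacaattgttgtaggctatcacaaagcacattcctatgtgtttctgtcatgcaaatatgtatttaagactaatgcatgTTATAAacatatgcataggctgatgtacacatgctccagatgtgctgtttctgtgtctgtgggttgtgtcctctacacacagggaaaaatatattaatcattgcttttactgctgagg
Lamb2, chr9:108479612-108479846: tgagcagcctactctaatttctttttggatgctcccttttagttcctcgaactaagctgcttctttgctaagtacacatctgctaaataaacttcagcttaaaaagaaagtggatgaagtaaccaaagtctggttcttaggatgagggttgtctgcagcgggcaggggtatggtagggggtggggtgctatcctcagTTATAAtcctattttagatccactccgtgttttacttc

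Col1a2 and Col3a1, which had the same highest and lowest mice, shared none of these motifs: Col1a2 held 2 GGGCGG and 1 CCAAT, and Col3a1 only the TTATAA, which the stretch of Lamb2 held too. Over windows from 250 bases before to 50 after the start, which were found for 26 of the 41 genes, a window with GGGCGG was present for 8 of 11 basement membrane genes and 7 of 13 interstitial genes, beside 35.7% of all 32851 RefSeq windows. CCAAT was present for 6 of 11 and 4 of 13, beside 37.4%, and TATAA for 2 of 11 and 4 of 13, beside 24.9%. The counts are by gene, where a motif in any window of the gene counted, while the shares are by single window. Genes with several windows are thus favoured. The 2 mural cell and fibroblast genes with a window had GGGCGG in 0, CCAAT in 0 and TATAA in 2. These counts describe letters only.

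For the other interstitial collagens losartan mouse 3 and aliskiren mouse 1 were again the 2 highest mice, with ranges from 2.83-fold for Col14a1 to 11.4-fold for Col12a1, and the order of the remaining mice varied by gene. Collagen VI forms beaded filaments around cells from the chains of Col6a1, Col6a2 and Col6a3. Col6a1 read 6.93, 7.16, 7.77, 6.26 and 6.62 with losartan and 7.24, 6.30, 6.58, 6.05 and 6.45 with aliskiren, and its difference of -0.42 (SE 0.29, unadjusted p = 0.171, adjusted p = 0.948) had the smallest p among the interstitial genes. Col6a3 had a like difference of -0.42 (SE 0.32) and Col6a2 one of -0.12 (SE 0.28). Without losartan mouse 3 these were -0.22 for Col6a1, -0.20 for Col6a3 and 0.08 for Col6a2.

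Col8a1, a short-chain collagen of vessel walls, spanned 8.64-fold between losartan mice 4 and 3, and Col12a1, which decorates collagen I fibrils, spanned 11.4-fold between the same mice. Col12a1 read 6.60, 7.16, 9.0002, 5.49 and 6.01 with losartan and 7.77, 6.57, 6.53, 5.91 and 6.85 with aliskiren. Col14a1, which also binds fibrils, was the exception at the top end. It was highest in aliskiren mouse 1, at 8.31, with losartan mouse 3 next at 8.23, and lowest in aliskiren mouse 4, at 6.81. A further Col14a1 probe set above the filter was highest in losartan mouse 1. The drug differences of these 3 genes were -0.22 (SE 0.51), -0.13 (SE 0.60) and -0.25 (SE 0.27).

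Among the tested matrix glycoproteins, Fn1, Sparc and Thbs2 were highest in losartan mouse 3 and next highest in aliskiren mouse 1, and Postn and Eln were not. Fibronectin, from Fn1, is the scaffold on which cells assemble collagen. Fn1 read 8.69, 9.09, 10.61, 7.93 and 8.53 with losartan and 9.54, 8.61, 8.54, 8.10 and 8.73 with aliskiren, with a difference of -0.27 (SE 0.45, adjusted p = 0.971). Sparc, a collagen-binding protein, spanned 6.55-fold and Thbs2, a thrombospondin, 4.97-fold, each from losartan mouse 4 to losartan mouse 3. Of 2 further Sparc probe sets above the filter, 1 had the same highest mouse. The other, with a mean of 5.87, was the reverse, highest in losartan mouse 4, at 6.15, and lowest in losartan mouse 3, at 5.57.

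Postn, which encodes periostin, a protein of healing and scarring tissue, had a different pair below losartan mouse 3. It read 5.73, 5.82, 8.65, 5.04 and 5.53 with losartan and 5.87, 6.53, 6.60, 5.29 and 5.69 with aliskiren. Losartan mouse 3 lay 8.69-fold above the mean of the other losartan mice, the largest such ratio among the 39 genes. Aliskiren mouse 1, second for most interstitial genes, lay below aliskiren mice 2 and 3 for Postn, which carried fat marker signal. The part of that signal in the Postn values was not tested.

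Eln, encoding elastin, was nearly level. It read 5.94, 5.98, 6.01, 6.03 and 6.06 with losartan and 5.99, 6.08, 6.20, 5.84 and 6.17 with aliskiren, a ratio of 1.28-fold over all mice and a difference of 0.05 (SE 0.07). Tnc, encoding tenascin-C of wounds and scars, was too low for the test. Its values were 4.98, 5.69, 7.52, 4.10 and 4.52 with losartan and 7.07, 5.49, 4.98, 4.68 and 5.25 with aliskiren, so that the same pair of mice stood above the filter level by a wide margin. Vcan, the large proteoglycan versican, stayed between 3.80 and 4.43.

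The cross-linking enzymes and the small proteoglycans shared their 2 highest mice with the fibrillar collagens, while the order below them differed, and the lowest mouse was losartan mouse 5 for Lox and aliskiren mouse 5 for Lum. The Lox set read had a mean of 5.73, not far above the filter level of 5.53, and the 7.85 of losartan mouse 3 raised it. Its lowest value, 5.06, lay below that level. A further Lox set, with a mean of 5.45 below the filter, was lowest in losartan mouse 4, at 4.82, so the lowest place depends on the probe set. Lox, the lysyl oxidase that makes collagen and elastin reactive, read 5.38, 5.74, 7.85, 5.35 and 5.06 with losartan and 6.32, 5.57, 5.47, 5.18 and 5.38 with aliskiren. Losartan mouse 3 was 5.53-fold above the mean of the other losartan mice and aliskiren mouse 1 was 1.89-fold above that of the other aliskiren mice. Loxl1, its relative, spanned 5.11-fold from aliskiren mouse 4 to losartan mouse 3. The differences were -0.30 (SE 0.48) for Lox and -0.36 (SE 0.42) for Loxl1.

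Decorin, from Dcn, and lumican, from Lum, coat collagen fibrils and set their width. Dcn read 9.76, 8.96, 11.70, 8.31 and 8.61 with losartan and 9.84, 9.37, 9.69, 8.15 and 8.59 with aliskiren, a ratio of 11.7-fold over all mice, and losartan mouse 1 stood above losartan mouse 2. Lum spanned 10.5-fold and had the lowest difference among the 39 genes, -0.44 (SE 0.59, adjusted p = 0.961), which was 0.10 without losartan mouse 3. Bgn, encoding biglycan, spanned 3.95-fold and differed by -0.32 (SE 0.36).

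Genes of the cells that make this matrix moved with it. Acta2, the smooth muscle actin of vessel walls and myofibroblasts, read 9.13, 9.42, 10.98, 8.67 and 8.95 with losartan and 9.44, 9.42, 9.26, 8.87 and 8.90 with aliskiren. Pdgfra, a growth factor receptor of fibroblasts, read 7.68, 7.66, 8.54, 6.22 and 6.80 with losartan and 8.51, 7.22, 7.28, 7.06 and 7.01 with aliskiren. Aliskiren mouse 1 stood almost level with losartan mouse 3 for Pdgfra, whereas for Acta2 it lay with the rest of its group. Tagln, a contractile protein gene, spanned 5.63-fold and Pdgfrb, the receptor of mural cells, 4.44-fold. The differences were -0.25 (SE 0.38) for Acta2, -0.27 (SE 0.43) for Tagln, 0.03 (SE 0.43) for Pdgfra and -0.05 (SE 0.39) for Pdgfrb.

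**Figure D3:**
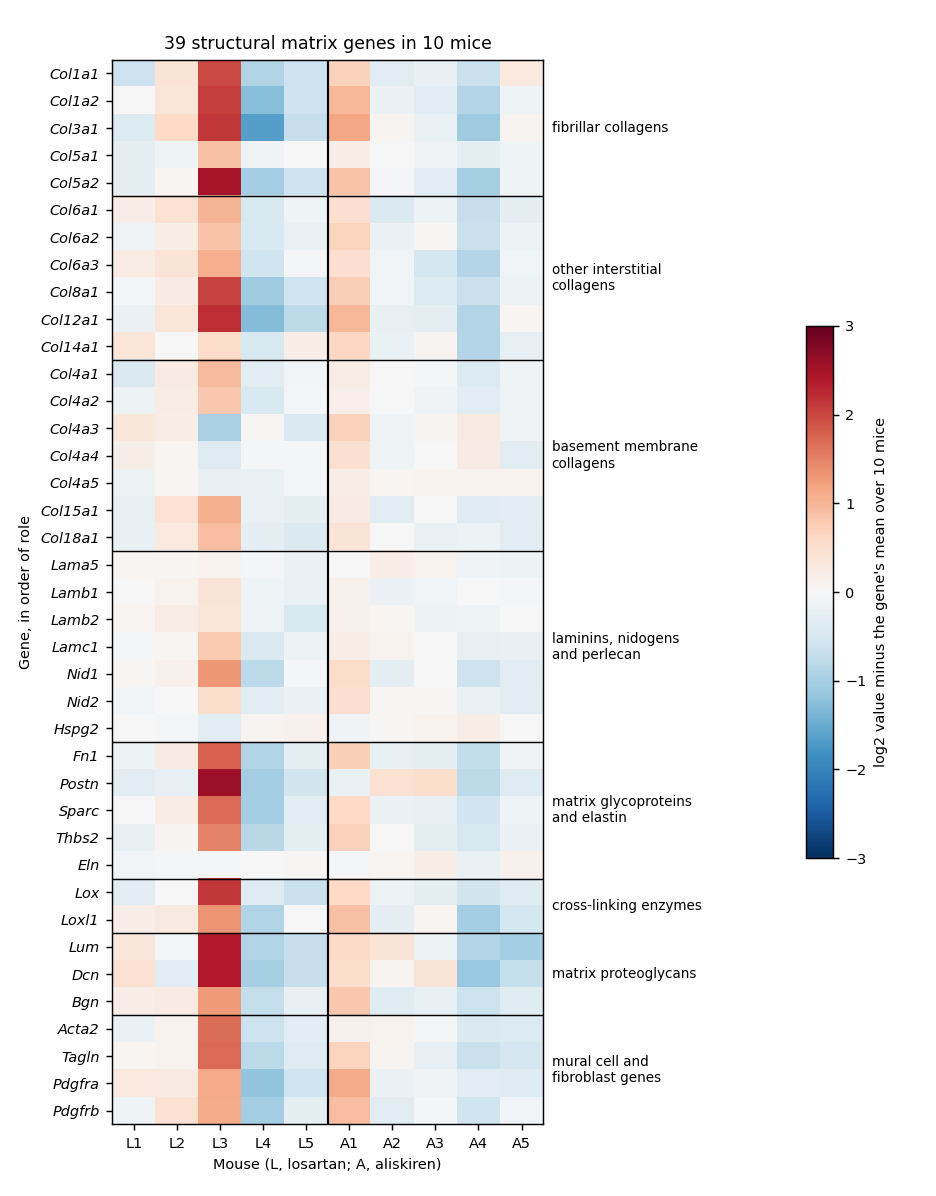
Log2 value of each of the 39 tested genes (rows, by role) in each mouse (columns, L1 to L5 losartan, A1 to A5 aliskiren), minus that gene's mean over the 10 mice. Red in L3 and A1 and blue in L4 and A4 run through the interstitial and mural cell genes, are weaker in most basement membrane genes, and turn to blue in L3 for Col4a3, Col4a4, Col4a5 and Hspg2.

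Of the 14 basement membrane genes, 9 were highest in losartan mouse 3, beside 29.2% of all genes. In the probe sets read, 4 were lowest in it, a share near the 24.9% of all genes, and Lama5 was nearly level. Col4a1 and Col4a2 encode the collagen IV chains found in nearly all basement membranes. Col4a1 read 10.66, 11.34, 12.03, 10.75 and 10.99 with losartan and 11.31, 11.07, 11.03, 10.68 and 10.97 with aliskiren. Col4a2 read 9.57, 9.94, 10.54, 9.27 and 9.68 with losartan and 9.87, 9.70, 9.63, 9.42 and 9.63 with aliskiren. Losartan mouse 3 was highest for both, at 2.14-fold and 1.90-fold above the mean of the other losartan mice, and losartan mouse 2 and aliskiren mouse 1 followed. The drug differences were -0.14 (SE 0.24) and -0.15 (SE 0.20).

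Col4a3, Col4a4 and Col4a5 encode the chains of the specialised collagen IV network of the glomerular basement membrane, the network affected in Alport syndrome. Col4a3 read 8.78, 8.65, 7.48, 8.49 and 8.02 with losartan and 9.14, 8.34, 8.53, 8.73 and 8.35 with aliskiren. Col4a4 read 11.31, 11.21, 10.76, 11.10 and 11.11 with losartan and 11.62, 11.01, 11.15, 11.38 and 10.83 with aliskiren. For both genes losartan mouse 3 was the lowest of 10 and aliskiren mouse 1 the highest, so the mice at the top for interstitial collagen lay at opposite ends here. The differences were 0.34 (SE 0.25, adjusted p = 0.948) for Col4a3 and 0.10 (SE 0.15, adjusted p = 0.969) for Col4a4. Without losartan mouse 3 they were 0.13 and 0.013.

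Col4a5 was the only structural matrix gene whose groups did not overlap, a separation found for 105 of all 11486 genes (0.914%). It read 8.70, 8.91, 8.64, 8.66 and 8.82 with losartan and 9.06, 8.92, 8.97, 8.97 and 8.96 with aliskiren. The means were 8.74 ± 0.12 (SD, n = 5) and 8.97 ± 0.05 (SD, n = 5), and the difference of 0.23 (SE 0.06, 95% CI 0.09 to 0.37) had an unadjusted p of 0.0041 and an adjusted p of 0.945. It was 0.21 without losartan mouse 3. A further Col4a5 probe set above the filter, with a lower mean of 7.33, differed by 0.03, so the separation was seen with 1 of 2 probe sets. In that further set losartan mouse 4 was lowest, at 6.97, with losartan mouse 3 at 7.35. The lowest place of losartan mouse 3 for Col4a5 thus depends on the probe set.

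Col15a1 and Col18a1 encode collagens that join basement membranes to the tissue below them. They were highest in losartan mouse 3, at 7.33 and 10.19, and their differences were -0.32 (SE 0.26) and -0.11 (SE 0.25). Nid1, encoding the linker nidogen-1, had the widest range among the basement membrane genes, 4.21-fold from losartan mouse 4 at 7.30 to losartan mouse 3 at 9.37. Nid2 spanned 1.82-fold. The laminin chain gene Lamc1 spanned 2.33-fold and was highest in losartan mouse 3, as were Lamb1 at 1.48-fold and Lamb2 at 1.78-fold. Lama5, the alpha chain of the main laminin of mature kidney, stayed within 1.31-fold and differed by 0.02 (SE 0.08).

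Hspg2, which encodes perlecan, read 8.64, 8.62, 8.31, 8.74 and 8.79 with losartan and 8.55, 8.69, 8.76, 8.83 and 8.65 with aliskiren. Losartan mouse 3 was lowest in this probe set and aliskiren mouse 4 highest, the reverse of most interstitial genes, over a range of 1.44-fold. A further Hspg2 probe set had losartan mouse 3 highest, at 7.48, and a difference of -0.13 where the first gave 0.08, so the direction for this gene depends on the probe set. Lama5 also had a further probe set of opposite sign, at -0.10, and in that set losartan mouse 3 was highest, at 8.15. Across the 18 genes with further probe sets above the filter, 2 of 22 such sets had the opposite sign and 17 of 22 had the same highest mouse.

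Counted over all members, losartan mouse 3 was the highest of 10 mice for 32 of 39 genes, beside 29.2% of all genes tested. It was highest for 19 of 21 interstitial genes, for 4 of 4 mural cell and fibroblast genes and for 9 of 14 basement membrane genes. It was lowest for 4 of 39 genes, all in the basement membrane, beside 24.9% of all genes. Losartan mouse 3 and aliskiren mouse 1 were the 2 highest mice for 28 of 39 genes, beside 12.8% of all genes, and for 5 of the 14 basement membrane genes. Losartan mouse 4 or aliskiren mouse 4 was lowest for 27 of 39, beside 23.7%, with 19 of 21 interstitial and 4 of 14 basement membrane genes. As these mice were chosen after the values were seen and the genes vary together, the counts are given as a description with no test.

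The ratio of highest to lowest mouse reached 2-fold for 31 of 39 genes, beside 14.3% of all genes. This held for 20 of 21 interstitial genes and 7 of 14 basement membrane genes. The median SD between mice within a group was 1.01 for the fibrillar collagens, 0.76 for the other interstitial genes, 0.73 for the mural cell and fibroblast genes and 0.34 for the basement membrane genes, beside 0.14 for all genes tested. The SD of Col3a1 exceeded that of 99.5% of all tested genes, that of Nid1 96.5%, that of Hspg2 53.7%, that of Eln 29.1% and that of Col4a5 16.9%.

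The spread was not that of 1 mouse alone. Without losartan mouse 3, 24 of 39 genes still reached 2-fold between the highest and lowest of 9 mice, beside 7.53% of all genes, and aliskiren mouse 1 was highest for 31 of 39, beside 22% of all genes. Without both of these mice, 17 of 39 reached 2-fold, beside 5.47% of all genes, and these held 15 of 21 interstitial and 0 of 14 basement membrane genes. The median SD in the remaining 8 mice was 0.50 for fibrillar, 0.20 for basement membrane and 0.12 for all genes.

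**Figure D4:**
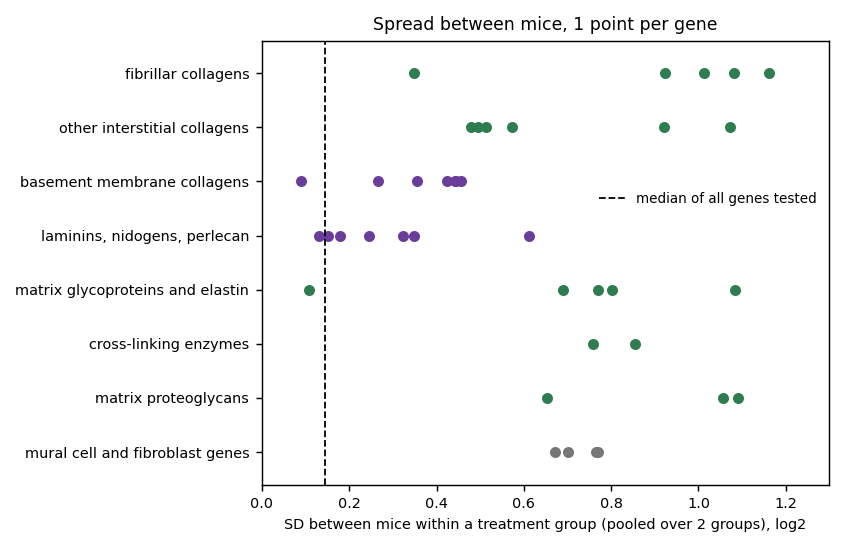
SD between mice within a treatment group, pooled over both groups, in log2, with 1 point per gene and genes in rows by role (green interstitial, purple basement membrane, grey mural cell and fibroblast). The dashed line is the median of all 11486 tested genes, 0.14, and every gene except Col4a5, Lama5 and Eln lies to its right.

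Fibrillar collagens and basement membrane genes were then set against each other as classes. Each gene was centred on its mean over the 10 mice and the centred values were averaged within the class. The fibrillar mean was -0.32, 0.26, 1.91, -0.99 and -0.51 in losartan mice 1 to 5 and 0.78, -0.09, -0.24, -0.78 and -0.005 in aliskiren mice 1 to 5. The basement membrane mean was -0.05, 0.14, 0.38, -0.23 and -0.18 with losartan and 0.27, -0.05, -0.01, -0.12 and -0.16 with aliskiren. The fibrillar mean spanned 7.44-fold between losartan mice 4 and 3 and the basement membrane mean 1.52-fold between the same mice, beside 1.09-fold for the mean of all genes tested. Because losartan mouse 3 was highest for 9 and lowest for 4 of the 14 basement membrane genes, opposite movements partly cancel in that mean. Gene by gene, the median range was 2.06-fold for basement membrane genes, 10.1-fold for fibrillar collagens and 10.5-fold for the 3 tested proteoglycans.

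By drug, the fibrillar mean was 0.07 ± 1.12 (SD, n = 5) with losartan and -0.07 ± 0.56 (SD, n = 5) with aliskiren, and the basement membrane mean 0.01 ± 0.25 and -0.01 ± 0.17 (SD, n = 5 each). The differences were -0.14 and -0.03, and fibrillar minus basement membrane differed by -0.11 between drugs, against SDs of 0.88 and 0.43 between mice. Without losartan mouse 3 that value was 0.26. Each of these differences lay within the spread between mice, and no test was run on the class means.

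**Figure D5:**
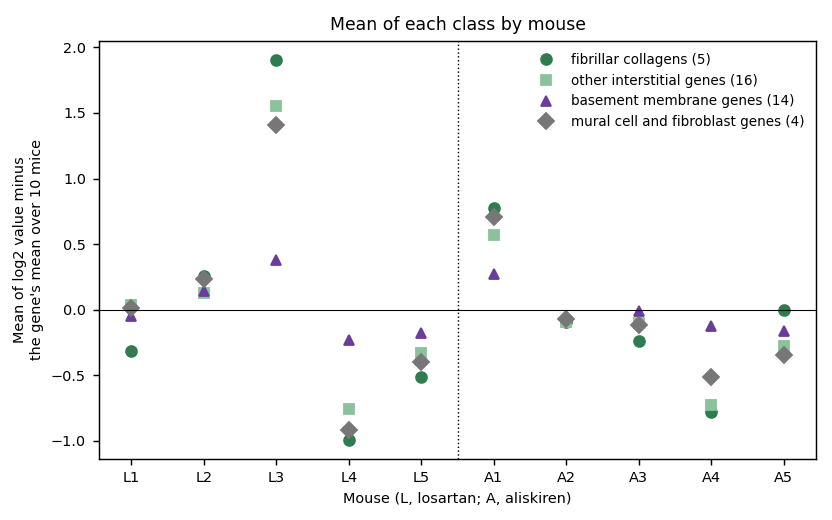
Mean of the centred log2 values of each class in each mouse, with 1 symbol per class and the number of genes in the legend, losartan mice L1 to L5 left of the dotted line and aliskiren mice A1 to A5 right of it. Fibrillar collagens run from -0.99 in L4 to 1.91 in L3, while basement membrane genes stay between -0.23 and 0.38.

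Chains that are built into the same protein kept together in some pairs: the gap between partners varied less than either chain for 4 of 8 pairs. Gaps between genes that are not partners were not measured, and most interstitial genes shared their highest mice. A small gap is thus not shown to be particular to partners or to neighbours. The log2 gap between Col4a1 and Col4a2, which lie next to each other on chromosome 8, had an SD of 0.12 over the 10 mice, where the chains themselves had SDs of 0.41 and 0.34. For Col6a1 and Col6a2, neighbours on chromosome 10, the gap had an SD of 0.19 against 0.53 and 0.47, and for Col1a1 and Col1a2, which are not neighbours, 0.31 against 0.87 and 0.96. The gap between Col4a3 and Col4a4, neighbours on chromosome 1, had an SD of 0.27 against 0.45 and 0.26, so it varied about as much as Col4a4 itself. Col5a1 and Col5a2 departed most, with a gap SD of 0.73 against 0.34 and 1.03, and their gap spanned 2.51 on the log2 scale between losartan mice 3 and 4. A further Col5a1 probe set above the filter ran from 4.80 in losartan mouse 4 to 7.35 in losartan mouse 3, wider than the one used, so this gap depends on the probe set. For the laminin chains the gap had an SD of 0.23 between Lamb1 and Lamc1, against 0.17 and 0.33, and of 0.24 between Lamb2 and Lamc1, against 0.23 and 0.33. Gaps between probe sets reflect probe behaviour as well as RNA, and a probe set near background can understate a range.

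Other genes of the matrix, listed by function, gave no call between drugs either. Of the collagen processing and cross-linking genes outside the members, 15 of 22 were tested, 7 were lower and 8 higher with aliskiren, 0 passed the adjusted test, and the median difference was 0.01. Plod2, a lysyl hydroxylase that prepares collagen for cross-links, had the smallest p there, with a difference of 0.33 (SE 0.11, unadjusted p = 0.010, adjusted p = 0.945), and P4ha2, a prolyl hydroxylase subunit, had 0.16 (SE 0.08). Of other interstitial matrix genes, 19 of 27 were tested and 17 were lower, with a median of -0.15 and 0 past the threshold. Tnxb, encoding tenascin-X, differed by -0.40 (SE 0.18) and Ecm1 by -0.25 (SE 0.13). Losartan mouse 3 was highest for 13 of the 19, beside 29.2% of all genes.

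Of other basement membrane genes, 11 of 18 were tested, 5 lower and 6 higher, with a median of 0.08 and 0 past the threshold. Frem2 and Fras1, partners in an epithelial basement membrane complex, differed by 0.25 (SE 0.12) and 0.24 (SE 0.16). Losartan mouse 3 was highest for 4 of the 11, near the 29.2% of all genes. Of the matrix receptors, 16 of 20 were tested, 8 lower and 8 higher, with a median of -0.01 and 0 past the threshold. Itgb8, an integrin chain, differed by 0.23 (SE 0.10, unadjusted p = 0.044, adjusted p = 0.945) and Ddr2, a receptor for fibrillar collagen, by -0.11 (SE 0.05).

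Havcr1, Lyz2 and Vim, single markers of injury, macrophages and mesenchymal cells, broadly moved with the interstitial genes across the mice. In the order of the fibrillar mean the mice were losartan 3, aliskiren 1, losartan 2, aliskiren 5, aliskiren 2, aliskiren 3, losartan 1, losartan 5, aliskiren 4 and losartan 4. Havcr1, encoding KIM-1 of injured proximal tubule, read 10.76, 9.37, 8.69, 7.82, 8.53, 6.08, 7.23, 5.41, 6.57 and 6.22 in that order, so its 3 highest mice were also the 3 highest for fibrillar collagen. Lyz2, lysozyme of macrophages, read 12.31, 11.89, 10.87, 10.80, 9.96, 9.43, 10.09, 8.28, 9.88 and 7.82 in the same order, with the same 4 mice on top. Vim, the mesenchymal filament vimentin, had the same 5 mice on top, from 10.79 in losartan mouse 3 to 8.03 in losartan mouse 4.

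The means of whole lists spanned less than these single genes, each of which had the largest spread in its list. The mean of the 10 macrophage markers lay between 6.18 and 9.14 with losartan and between 6.95 and 8.49 with aliskiren, that of the 10 injured tubule markers between 7.25 and 9.997 and between 7.61 and 8.88, and that of the 11 fibroblast markers between 6.36 and 7.53 and between 6.52 and 6.87. In each, losartan mouse 3 was the highest of its group and aliskiren mouse 1 the highest of the other. The mean of 9 smooth muscle markers lay between 5.86 and 6.66 with losartan and 5.79 and 6.04 with aliskiren, and that of 10 endothelial markers between 7.07 and 7.95 and between 7.19 and 7.62. The part of these cells in the values of the matrix genes was not tested.

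Fat markers did not track the collagens in the same way. The mean of 8 fat markers was 10.90 in losartan mouse 3, 8.68 in aliskiren mouse 3 and 6.98 in aliskiren mouse 2, and between 5.61 and 5.86 elsewhere. Aliskiren mouse 1, second for fibrillar collagen, had the lowest fat mean of all, 5.61, and aliskiren mice 2 and 3 had fibrillar means of -0.09 and -0.24, near the average of the 10 mice. Urothelial markers had a mean of 6.53 in losartan mouse 3 and between 5.37 and 5.83 in the other mice. Podocytes are a cell type that makes Col4a3, Col4a4 and Col4a5. Podocyte markers had a mean of 7.15 in losartan mouse 3 and of 7.21 in aliskiren mouse 1. In the probe sets read, those 3 genes were lowest in the former and highest in the latter mouse. For Col4a5 neither place held in the further probe set, which was lowest in losartan mouse 4, at 6.97, and highest in aliskiren mouse 2, at 7.48. The podocyte list was split: losartan mouse 3 was highest for 2 and lowest for 2 of the 8 podocyte markers. The part of podocytes in these values was not tested.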

How the data were processed

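RNA of renal cortex from 10 mice was hybridised to Affymetrix mouse arrays, 1 per mouse. The values the authors deposited are log2 RMA signals, and the submitters' processing notes name Affymetrix Expression Console 1.1. RMA sets the arrays to a common distribution, so an overall change in RNA amount is not visible. Array medians lay between 5.52 and 5.56. The number of arrays limits the precision. No build is named with the values.

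Genes were named from the 34945 probe sets with 1 symbol, leaving out 932 with several and 9160 with none. Differences were fitted with limma 3.58.1 in R 4.3.3 (lmFit, eBayes, two-sided, treatment only), with Benjamini-Hochberg adjustment over 11486 genes and tested on simulated data. Named are all members, the 2 genes of smallest p per pathway list, the gene of largest spread per cell list, and Havcr1. Members and lists were chosen with earlier results of these data known. Alternatives covered filter, probe set, scaling, variance model, weights, block and each array left out. The SD between mice is the square root of the mean variance of both groups.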

Additional observations from a re-analysis of the deposited data

Results flagged for a closer look

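Of the 82 groups of 5 mice given by the 41 matrix genes, 5 had a value far from the rest. This is near the rate of about 1 in 20 that chance gives for independent groups. The groups here share the same mice and the genes vary together, so the 5 are listed as a description only. In the losartan group the value of mouse 3 stood apart and high for Col5a1 (6.91), Postn (8.65) and Lox (7.85). In the aliskiren group the value of mouse 1 stood apart and high for Bgn (10.45) and Pdgfra (8.51).

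The genes outside the matrix list were chosen for their spread, a small p or after their values were seen, so that rate is no reference for them. Among these, losartan mouse 3 stood apart and high for Adipoq (12.96), the bladder lining gene Upk3a (8.29) and Krt19 (9.07), a keratin of injured and duct epithelium. It stood apart and low for the epithelial basement membrane gene Fras1 (8.19) and for Slc7a13 (10.47), a transporter of the proximal straight tubule. Losartan mouse 4 stood apart and low for the endothelial gene Pecam1 (5.28), where the other losartan mice lay between 6.23 and 6.42. Krt19 and Pecam1 were named after their values were seen.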

How the results depend on the processing

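The counts of genes past the threshold, 0 over all genes and 0 among the members, held under every alternative run, and the lowest adjusted p over all genes then lay between 0.64 and 1.00. With the mouse number as a replicate block, 0 genes passed, 450 had an unadjusted p under 0.05, and no sign of a member turned; the numbers name different animals, and same-numbered mice correlated from -0.23 to 0.42 in their deviations. Leaving out each mouse in turn moved the members lower with aliskiren to between 7 and 34. The 75th percentile filter, which kept 21 members, gave 15. Leaving out losartan mouse 3 and aliskiren mouse 1 gave 17 and a median spread of 0.32, turning 15 of 39 signs, and leaving out the 3 mice with fat marker signal gave 10, turning 26. Both of these were added after the data were seen. Array weights turned 12 signs, to 0.18 for Col1a1, 0.040 for Col5a2, 0.10 for Col12a1, 0.013 for Col4a1, -0.033 for Col4a4, 0.0028 for Lamb2, 0.032 for Lamc1, 0.36 for Postn, 0.046 for Thbs2, 0.00027 for Lox, 0.0043 for Acta2 and 0.0062 for Pdgfrb. The mean of all probe sets gave -0.056 for Lama5, 0.0062 for Lamb1 and -0.026 for Hspg2, and quantile normalization gave 0.0013 for Lamb2. Signs that turned when a mouse was left out had these ranges: Col1a1 -0.33 to 0.39, Col1a2 -0.56 to 0.28, Col3a1 -0.39 to 0.55, Col5a1 -0.22 to 0.061, Col5a2 -0.54 to 0.33, Col6a2 -0.30 to 0.080, Col8a1 -0.52 to 0.26, Col12a1 -0.47 to 0.41, Col4a1 -0.27 to 0.076, Col4a2 -0.28 to 0.036, Col4a4 -0.0073 to 0.19, Col18a1 -0.24 to 0.10, Lama5 -0.027 to 0.061, Lamb1 -0.12 to 0.021, Lamb2 -0.15 to 0.060, Lamc1 -0.19 to 0.11, Nid1 -0.49 to 0.031, Nid2 -0.10 to 0.16, Hspg2 -0.0017 to 0.12, Fn1 -0.53 to 0.14, Postn -0.44 to 0.47, Sparc -0.50 to 0.18, Thbs2 -0.32 to 0.26, Lox -0.50 to 0.20, Lum -0.72 to 0.10, Dcn -0.63 to 0.22, Acta2 -0.44 to 0.13, Tagln -0.50 to 0.12, Pdgfra -0.26 to 0.32 and Pdgfrb -0.32 to 0.22. The cause was not tested. The variance model, weights and block do not enter class means, so these were not run for them. Values near background limit what low probe sets can show.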

Other observations

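Several cell type lists had only lower point estimates with aliskiren, with no call at the adjusted threshold, beside 53.8% of all genes lower. This held for 6 of 6 collecting duct genes tested, with a median of -0.32, 9 of 9 endothelial genes, with -0.24, 6 of 6 podocyte genes, with -0.09, and 4 of 4 genes each of vascular smooth muscle, with -0.09, and fat, with -0.12. It held for 2 of 2 urothelial genes too. These lists are named for their direction. In others, 2 of 9 macrophage, 4 of 8 injured tubule, 5 of 10 proximal tubule and 6 of 8 fibroblast genes were lower. Losartan mouse 3 was highest for 4 fat, 2 urothelial, 3 smooth muscle, 3 collecting duct, 4 endothelial and 2 podocyte genes of those tested. Estimates of these lists without that mouse are not given here. An unadjusted p under 0.05 was found for 3 collecting duct genes and 1 endothelial gene, beside 4.72% of all genes. Aqp2, the water channel of the collecting duct, differed by -0.47 (SE 0.24, adjusted p = 0.945).

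Col4a3 and the proximal tubule transporter gene Slc7a13 were both lowest in losartan mouse 3, at 7.48 and 10.47, and aliskiren mouse 1 was the highest for Col4a3, at 9.14, and second for Slc7a13, at 13.58. Both Col4a3 probe sets and all 3 of Col4a4 had aliskiren mouse 1 highest. Npr3, from the podocyte list, read 7.39 in losartan mouse 3 and 7.13 in aliskiren mouse 1, its 2 highest mice. Vwf, of endothelium, and Actg2, a smooth muscle actin, were below the filter and highest in losartan mouse 3, at 6.33 and 5.34. No explanation was tested for these values.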
